A study of Mus musculus with 12 samples.

Results

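Transcripts of 10 genes that T cells use to recognise antigen were followed in mice without nuclear myosin 1 (KO) and in wild-type (WT) controls, in blood and in spleen. The genes are Cd3d, Cd3e, Cd3g and Cd247, which encode the signalling chains of the T cell receptor, Cd4, Cd8a and Cd8b1, which encode its coreceptors, and Cd28, Lck and Tcf7, which encode a costimulatory receptor, a kinase and a transcription factor of T cells. They were chosen by name, by matching the Ensembl identifiers of the counts to gene symbols, and make up 10 of 46603 identifiers. Each was found exactly once, and all 10 passed the filter on low counts in each of the 9 fits described here.

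The study comprised 12 RNA-seq libraries, 3 for each genotype in each tissue, from C57/Bl6 mice aged 8 months. Blood was drawn from the submandibular vein, and the spleen sample was a tip of about 5 mm3. Each library started from 500 ng of total RNA. Nuclear myosin 1 is a form of the myosin made by Myo1c, and counts per gene do not separate the forms of a gene, so the deletion was not checked here. The labels do not say which libraries came from the same mouse, and p-values measure the spread between libraries.

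The T cell receptor has no signalling tail of its own. Its variable chains are held in the membrane by the CD3 gamma, delta and epsilon chains and by the zeta chain, the product of Cd247, whose cytoplasmic motifs are phosphorylated by Lck once the receptor binds a peptide on a major histocompatibility complex (MHC) molecule. CD4 binds MHC class II on helper and regulatory T cells, CD8 alpha and beta bind MHC class I on cytotoxic T cells, and both coreceptors bring Lck to the receptor. Spleen white pulp and blood both hold many naive T cells, in which Tcf7 is highly transcribed. Some of these genes are also active outside T cells: Cd8a and Cd4 in subsets of splenic dendritic cells, and Cd247, Lck and Tcf7 in natural killer (NK) cells.

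The 3 CD3 genes lie together on chromosome 9, and positions here are on GRCm38. Cd3d (chr9:44981786-44987339, plus strand) and Cd3g (chr9:44969572-44980431, minus strand) are transcribed away from each other from starts 1355 bases apart, and Cd3e (chr9:44998740-45009627, minus strand) follows 11.4 kb further on. Since the levels of the signalling chains are compared throughout, the 250 bases before the RefSeq start (GRCm38.p6) of each of their genes are shown, 5′ to 3′ on the gene's strand. Capitals mark AGGAAG on either strand, one form of the site bound by ETS-family factors, and other forms are not marked.
Cd3d, chr9:44981536-44981785, plus strand: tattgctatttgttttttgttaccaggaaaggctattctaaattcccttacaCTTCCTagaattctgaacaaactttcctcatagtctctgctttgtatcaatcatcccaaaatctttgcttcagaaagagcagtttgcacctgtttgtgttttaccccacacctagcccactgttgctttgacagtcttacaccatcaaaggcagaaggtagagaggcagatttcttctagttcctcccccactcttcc
Cd3g, chr9:44980432-44980681, minus strand: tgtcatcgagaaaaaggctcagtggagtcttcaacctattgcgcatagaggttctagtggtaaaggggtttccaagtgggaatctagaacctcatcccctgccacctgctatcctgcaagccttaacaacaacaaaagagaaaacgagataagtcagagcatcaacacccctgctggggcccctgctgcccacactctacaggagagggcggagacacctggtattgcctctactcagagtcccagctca
Cd3e, chr9:45009612-45009861, minus strand: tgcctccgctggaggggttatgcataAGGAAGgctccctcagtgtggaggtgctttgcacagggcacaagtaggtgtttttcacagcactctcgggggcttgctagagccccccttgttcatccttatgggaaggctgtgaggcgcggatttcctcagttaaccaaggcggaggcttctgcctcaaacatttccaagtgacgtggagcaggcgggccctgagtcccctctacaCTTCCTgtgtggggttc
Cd247, chr1:165788431-165788680, plus strand: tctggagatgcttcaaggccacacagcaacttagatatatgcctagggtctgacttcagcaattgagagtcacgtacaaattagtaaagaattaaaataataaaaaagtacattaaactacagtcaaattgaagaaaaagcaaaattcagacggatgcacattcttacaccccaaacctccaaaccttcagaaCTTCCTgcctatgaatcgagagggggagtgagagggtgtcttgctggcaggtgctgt
The marked form occurred once before Cd3d, 198 bases from the start, and at 224 and 17 bases before Cd3e. It occurred once before Cd247, at 57 bases, and not in the window of Cd3g. Promoter windows of 300 bases, reaching 50 bases past the start, were matched for 7 of the 10 genes, which have 9 windows in all. Motifs were counted only in the 250 bases before the start, in these and in all other windows. AGGAAG occurred in 5 of the 9 windows (of Cd247, Cd3d, Cd3e and Lck) and in 29.5% of all 32851 windows. The E-box CANNTG occurred in 7 of the 9 against 66.2% of all windows. The RUNX core TGTGGT occurred in 1 of the 9 (Lck) against 14.0%, and the TCF/LEF core CTTTGA in 1 of the 9 (Cd3d, with 2 matches) against 13.8%. Each motif was searched on both strands, and a match describes letters, not a bound site.

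Cd247 is at chr1:165788681-165877277 (plus strand), Cd28 at chr1:60716800-60773359 (plus), Cd4 at chr6:124864692-124888221 (minus), Lck at chr4:129548344-129573641 (minus) and Tcf7 at chr11:52252371-52283014 (minus). Cd8a (chr6:71373427-71379173) and Cd8b1 (chr6:71322788-71337494) are neighbours on the plus strand, 35.9 kb apart. Cd247 overlaps Pou2f1 on the other strand, and Cd3e and Tcf7 overlap antisense genes. The strand setting of the counting is not given in the sources used here, so reads of such overlaps cannot be told apart. Pou2f1 measured 16.1 to 51.0 CPM (counts per M counts) and A630014C17Rik, antisense to Tcf7, at most 3.03 CPM, with globin counts left out of the total.

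The 12 libraries fell into 2 kinds that cross the tissue labels. Globin genes took 48.9 to 56.1% of the counts in 6 libraries, here called globin-rich (WT blood 01, KO blood 02 and 03, WT spleen 02 and 04, KO spleen 03), and 0.846 to 5.90% in the other 6, called globin-poor, with the line set at 25%. Each kind held 3 blood and 3 spleen labels and 3 WT and 3 KO libraries. WT blood held 1 globin-rich library and KO blood 2, whereas WT spleen held 2 and KO spleen 1. Total counts were 9.32 to 12.1 M in globin-rich and 23.1 to 28.2 M in globin-poor libraries, of which 4.09 to 5.83 and 21.8 to 27.4 M were not globin. A count of 0 allows up to 3 counts by counting error, which is 0.109 to 0.733 CPM. Vcam1, an adhesion molecule of splenic macrophages and stroma, was at 0 to 1.72 CPM where globin was rich and at 197 to 411 CPM where it was poor. Pf4, a platelet chemokine, measured 279 to 870 and 33.1 to 70.5 CPM. In 6 libraries these levels go against the tissue label. WT blood 03 and 04 and KO blood 04 had Vcam1 at 197 to 405 CPM and Pf4 at 33.1 to 70.5 CPM, and WT spleen 02 and 04 and KO spleen 03 had Vcam1 at 0 to 1.22 CPM and Pf4 at 685 to 870 CPM. In all that follows, blood and spleen mean the tissue label only, and the genotype comparisons are also given with kind as a term and within each kind. Values below are CPM with globin left out unless a scaling is named.

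The CD3 chains were present in every library. Cd3d, the delta chain, measured 33.1, 88.4 and 47.6 CPM in WT blood 01, 03 and 04, and 41.1, 40.4 and 67.5 CPM in KO blood 02, 03 and 04. In spleen it measured 132, 21.5 and 37.6 CPM in WT 01, 02 and 04, and 72.7, 53.9 and 98.7 CPM in KO 01, 03 and 04. The highest and the lowest library both carry the WT spleen label, and KO and WT overlapped in both tissues, as they did for each of the 10 genes. Of 14538 genes with an average of 1 CPM or more, KO was higher without overlap for 0.117% and lower for 3.37% in blood, and for 1.30% and 1.27% in spleen. Cd3g, the gamma chain, measured 32.8, 66.5 and 46.6 CPM in WT blood, 45.2, 40.0 and 57.5 CPM in KO blood, 125, 33.1 and 32.5 CPM in WT spleen and 81.1, 62.0 and 118 CPM in KO spleen, in the same order of libraries. Cd3e, the epsilon chain, measured 44.1, 56.7 and 46.7 CPM in WT blood, 67.1, 45.3 and 58.8 CPM in KO blood, 114, 43.5 and 35.2 CPM in WT spleen and 63.5, 57.0 and 104 CPM in KO spleen. Its highest blood value was in a globin-rich library, unlike those of Cd3d and Cd3g.

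Cd247, the zeta chain, measured 33.1, 37.1 and 30.1 CPM in WT blood and 44.7, 34.7 and 32.0 CPM in KO blood. In WT spleen it measured 74.0, 21.5 and 14.4 CPM, and in KO spleen 48.0, 36.4 and 70.1 CPM. Blood values of Cd247 lay within a narrow band in both kinds, and spleen values were split by kind. WT spleen 04, the lowest, rested on 59 counts.

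Among the coreceptors, Cd4 measured 45.3, 67.5 and 62.2 CPM in WT blood and 54.0, 45.3 and 66.5 CPM in KO blood, then 145, 23.9 and 34.9 CPM in WT spleen and 89.6, 48.3 and 145 CPM in KO spleen. Every globin-rich library was below every globin-poor one for Cd4. Cd8a measured 58.0, 64.1 and 91.1 CPM in WT blood, 85.8, 43.6 and 66.4 CPM in KO blood, 185, 37.6 and 37.4 CPM in WT spleen and 112, 67.5 and 151 CPM in KO spleen. Cd8b1, the chain that dendritic cells lack, measured 48.2, 56.1 and 49.7 CPM in WT blood, 57.4, 40.0 and 47.6 CPM in KO blood, 121, 35.0 and 39.1 CPM in WT spleen and 79.2, 63.4 and 98.3 CPM in KO spleen. For both CD8 genes the groups overlapped in each tissue.

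Lck, the kinase carried by both coreceptors, measured 95.9, 168 and 142 CPM in WT blood, 113, 78.0 and 144 CPM in KO blood, 315, 82.5 and 76.5 CPM in WT spleen and 196, 135 and 286 CPM in KO spleen. Like Cd4, it was lower in every globin-rich than in every globin-poor library. Cd28, the receptor for CD80 and CD86, measured 25.2, 16.0 and 13.9 CPM in WT blood, 27.5, 21.6 and 13.2 CPM in KO blood, 33.4, 8.05 and 11.5 CPM in WT spleen and 25.9, 19.6 and 36.7 CPM in KO spleen. Its lowest value rested on 37 counts. Tcf7, the gene for TCF-1, measured 202, 104 and 104 CPM in WT blood, 233, 161 and 99.1 CPM in KO blood, 228, 126 and 136 CPM in WT spleen and 184, 189 and 272 CPM in KO spleen. In blood-labelled libraries Cd28 and Tcf7 were higher in the 3 globin-rich than in the 3 globin-poor libraries without overlap (2 of 10, against 7.78% of 14538 genes), while Cd3d, Cd3g, Cd4 and Lck were lower (4 of 10, against 58.6%). In spleen-labelled libraries 9 of the 10, all but Tcf7, were lower in the globin-rich ones without overlap, against 71.2% of genes, and none was higher, against 5.85%.

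**Figure D1:**
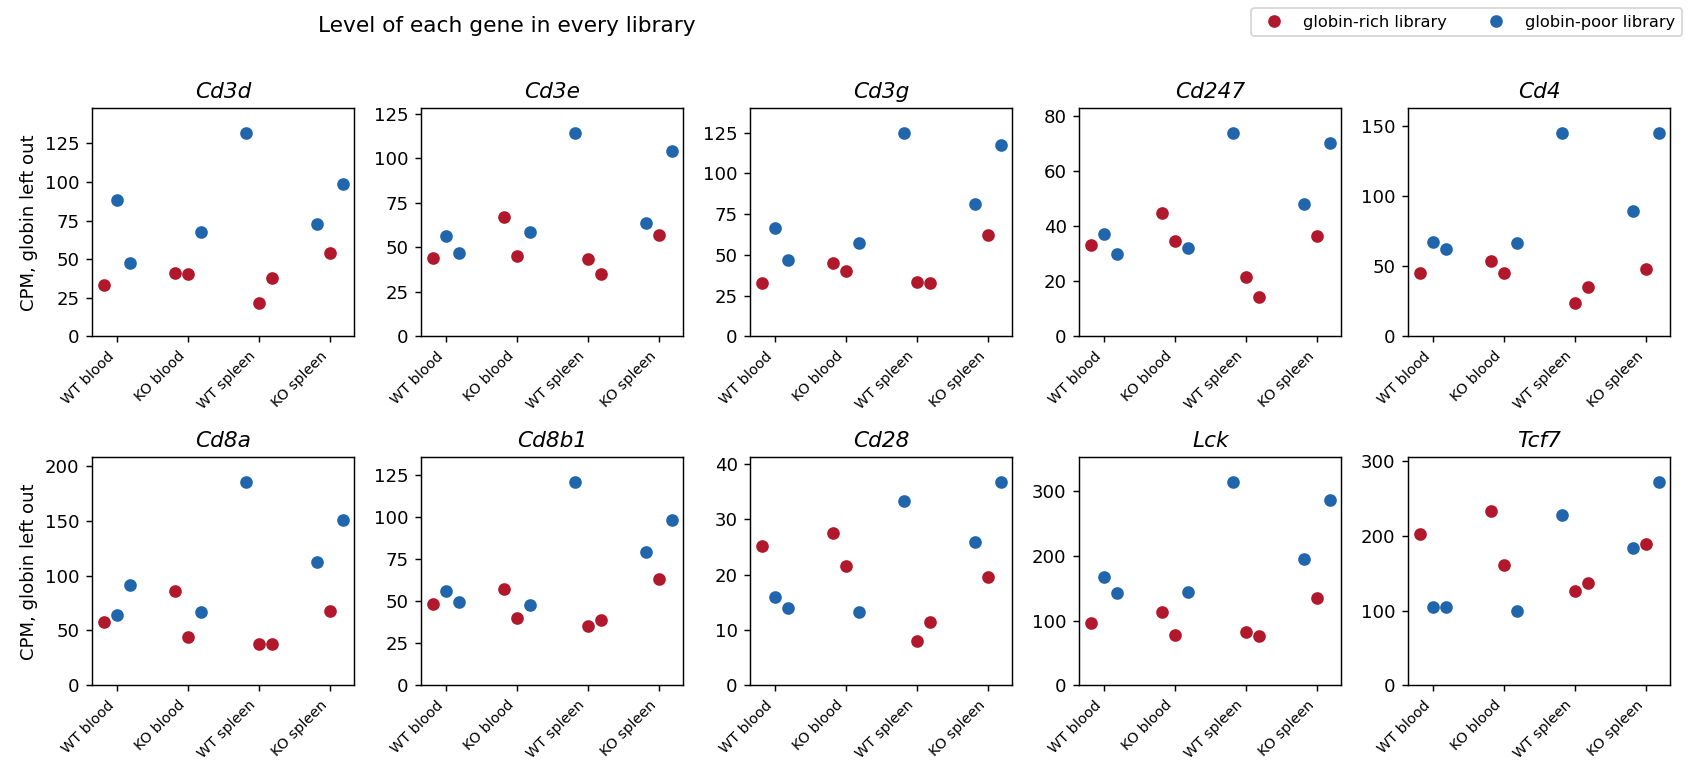
CPM with globin left out (y axis, linear, from 0) of each gene in every library, by group (x axis), with globin-rich libraries in red and globin-poor ones in blue. WT spleen 01 and KO spleen 04, both globin-poor, hold between them the highest value of every gene, while Cd28 and Tcf7 in blood show red points above blue ones.

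The 10 genes together took 433 to 769 CPM of globin-rich libraries and 635 to 1473 CPM of globin-poor ones. Per kb of exon, median CPM over the 12 libraries ran from Tcf7 (65.8), Lck (47.4), Cd8b1 (35.7) and Cd3d (28.0) through Cd8a (18.4), Cd3g (15.9), Cd4 (14.4) and Cd3e (13.9) to Cd247 (6.67) and Cd28 (3.36). The ranges of all neighbours in this order overlapped. Within libraries, Cd3e was above Cd247 and Cd247 above Cd28 in 12 of 12, Cd3d above Cd8a in 11 and Cd8b1 above Cd3d in 10. Tcf7 was above Lck in 8 libraries, and each of the other neighbouring pairs kept its order in 9.

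The genotype comparison asks whether loss of nuclear myosin 1 altered the level of these genes, the series being presented as a study of platelets and immune response. None of the 10 differed between KO and WT in blood or in spleen by edgeR's quasi-likelihood test with Benjamini-Hochberg adjustment over all genes tested. In blood, where 0% of 15002 genes were called, all 10 fitted log2 fold changes were above 0, with a median of 0.38 against -0.06 over all genes. They ran from 0.12 ± 0.27 (SE) for Lck to 0.63 ± 0.35 for Cd3e and 0.64 ± 0.69 for Tcf7, and no gene of the 10 had an unadjusted p under 0.05. Over all genes, 27 had an unadjusted p under 0.05 by edgeR, 54 by DESeq2 and 39 by limma-voom, and neither of the other tools called any gene. Scaled by library size alone, the median of the 10 was -0.06 and 4 were above 0, so the direction in blood depended on the scaling. The median of all genes then was -0.40.

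In spleen, where 0% of 15402 genes were called, the median of the 10 genes was -0.09 against 0.02 over all genes, from -0.36 ± 0.27 for Cd3e to 0.11 ± 0.26 for Cd28, and 3 were above 0. Unadjusted p was under 0.05 for 359 genes by edgeR, 714 by DESeq2 and 153 by limma-voom, with none of the 10 by edgeR and no gene called by any of the 3. Scaled by library size alone, the median of the 10 was 0.39, all 10 were above 0 and the median of all genes was 0.54. The difference of the KO effects between the tissue labels, spleen minus blood, had a median of -0.43 over the 10 genes and was below 0 for each. Cd3e had the furthest value, -0.96 ± 0.43, with an unadjusted p of 0.0466 and an adjusted p of 0.928 by edgeR. None of 17555 genes was called for this difference (239 with an unadjusted p under 0.05, 581 by DESeq2 and 79 by limma-voom, neither with a call), and library size alone gave a median of 0.43 for the 10. The mix of kinds runs opposite ways in the tissue labels, as counted above. With kind as a term within each label, the median of the 10 genes was 0.17 in blood, with 10 of 10 above 0, and -0.12 in spleen, with 8 of 10 below 0, and none was called.

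With the library kind as a term over all 12 libraries, KO against WT had a median log2 fold change of 0.14 over the 10 genes against -0.05 over all genes. All 10 values lay between 0.01 (Lck) and 0.31 (Cd28), the latter with an SE of 0.25. None was called, and 0% of 17555 genes were, while 816 had an unadjusted p under 0.05. By DESeq2 1 gene was called, which was none of the 10, and by limma-voom none. DESeq2 and limma-voom each put 9 of the 10 above 0. Restricted to the globin-rich blood and globin-poor spleen libraries, the median was 0.02 and 6 of 10 were above 0. These were WT blood 01, KO blood 02 and 03, WT spleen 01 and KO spleen 01 and 04, so WT was a single library under each label.

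The fits within a kind had no term for tissue label. Among globin-rich libraries WT held more spleen and KO more blood labels, and among globin-poor ones the reverse. The part of the label in the values that follow was not tested. Within the globin-rich libraries the median KO against WT was 0.21, with Cd247 furthest from 0 at 0.45 ± 0.24 (adjusted p = 0.733, edgeR). In CPM, Cd3d, Cd3e, Cd3g and Cd247 were each higher in the 3 KO than in the 3 WT globin-rich libraries without overlap, 4 of 10 genes against 7.43% of the 14538 genes. None of the 10 was lower in KO, against 4.73%. Cd247, for example, measured 44.7, 34.7 and 36.4 CPM in KO against 33.1, 21.5 and 14.4 CPM in WT. These are the 4 genes of the signalling chains, and none of them was called (0% of 11844 genes by edgeR, 823 with an unadjusted p under 0.05; 33 called by DESeq2 and 0 by limma-voom, none of the 10). For Cd247 the nearest values were 34.7 CPM (185 counts, KO blood 03) and 33.1 CPM (193 counts, WT blood 01). For Cd3e they were 45.3 and 44.1 CPM in the same libraries (241 and 257 counts). Those of Cd3d were 40.4 and 37.6 CPM, and those of Cd3g 40.0 and 33.1 CPM. Fitted values of the 4 ran from 0.10 ± 0.22 for Cd3e to 0.45 ± 0.24 for Cd247. Library size alone moved the median of all genes from -0.01 to 0.30 in this comparison and that of the 10 from 0.21 to 0.52. Within the globin-poor libraries the median of the 10 was 0.06, from -0.18 for Cd3d to 0.32 for Tcf7, and no gene of the 10 was called or free of overlap (2.12% of genes were higher and 0.908% lower without overlap, 0% of 16414 genes called by edgeR, 145 with an unadjusted p under 0.05, 5 called by DESeq2 and 0 by limma-voom, none of the 10). The test of the difference between the kinds gave a median of 0.39 over the 10 and called none of 19117 genes. It gave 1477 with an unadjusted p under 0.05, and DESeq2 called 47 and limma-voom 0, none of the 10.

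**Figure D2:**
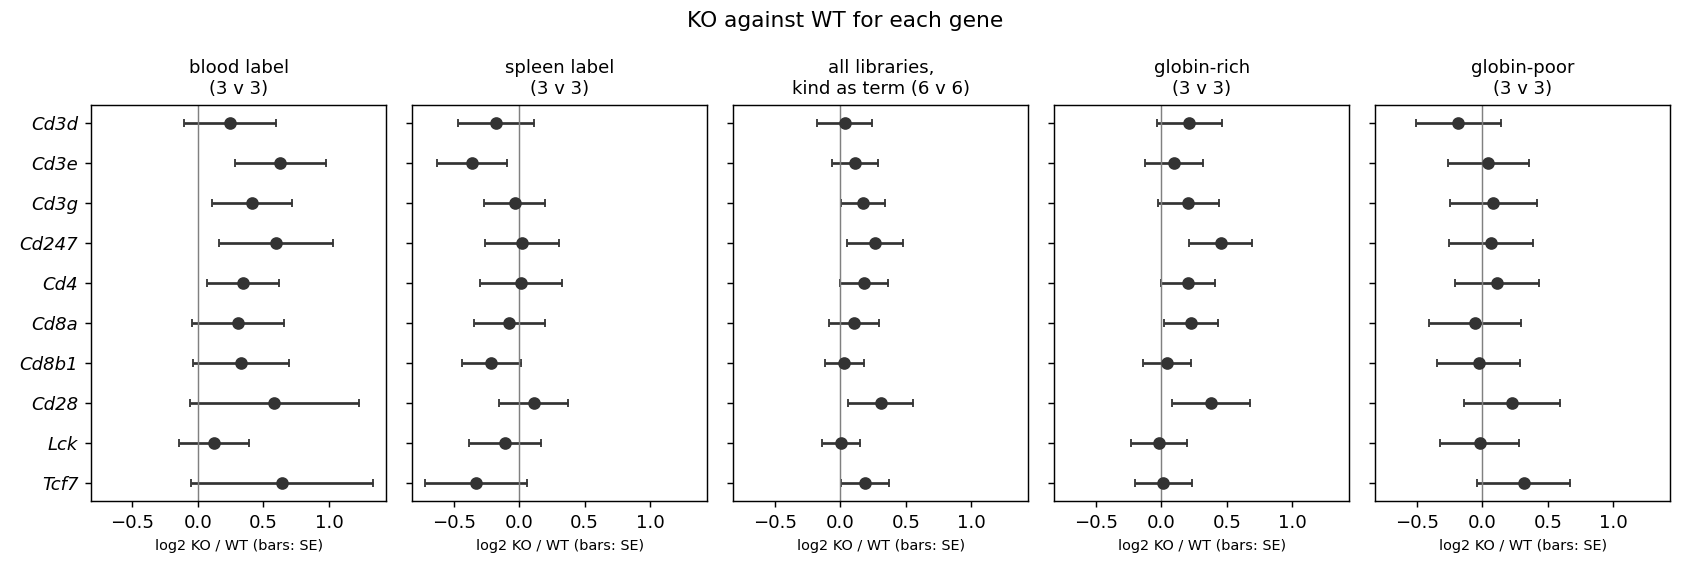
Log2 fold change of KO over WT (x axis) with its SE for each gene, in blood, in spleen, over all libraries with kind as a term, and within each kind, under TMM scaling. Blood values are all above 0 and spleen values mostly below, and with kind as a term all 10 lie between 0.01 and 0.31.

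The Cd4 to Cd8a count ratio, a within-library measure that no scaling changes, ran from 0.629 to 1.05. It was 0.781 in WT blood 01 (95% exact binomial interval 0.662 to 0.920), 1.05 in WT blood 03 (0.979 to 1.13) and 0.683 in WT blood 04 (0.638 to 0.730). In KO blood it was 0.629 in library 02 (0.543 to 0.728), 1.04 in 03 (0.864 to 1.25) and 1.00 in 04 (0.932 to 1.08). Libraries of one group thus differed by more than counting error, and the globin-poor WT blood 03 and 04 do not share an interval. In WT spleen the ratio was 0.783 in library 01 (0.749 to 0.818), 0.636 in 02 (0.496 to 0.812) and 0.935 in 04 (0.739 to 1.18). In KO spleen it was 0.799 in 01 (0.757 to 0.842), 0.715 in 03 (0.609 to 0.840) and 0.962 in 04 (0.918 to 1.01). Intervals cover counting error only, and since the ratio is of counts per gene and not per kb, a value of 1 marks equal counts, not equal numbers of transcripts or cells.

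KO and WT ratios overlapped throughout. The 6 KO libraries averaged 0.858 ± 0.168 (SD) and the 6 WT libraries 0.812 ± 0.157. The mean log2 difference was 0.08 (two-sided exact permutation test with genotype permuted within kind, p = 0.635, n = 6 and 6). The same difference was 0.07 in blood (exact p = 1), 0.08 in spleen (exact p = 0.7), 0.004 in globin-rich (exact p = 1) and 0.15 in globin-poor libraries (exact p = 0.6), where 3 against 3 allows no p below 0.1. Within a kind the tissue labels were split unevenly between KO and WT, and within a label the kinds were. Globin-rich libraries averaged 0.789 ± 0.166 and globin-poor ones 0.880 ± 0.146, a log2 difference of -0.17 (exact permutation p = 0.297). Spleen labels averaged 0.805 ± 0.125 and blood labels 0.865 ± 0.190, a log2 difference of -0.09 (exact permutation p = 0.595, label permuted within kind). Adjusted over these 3 comparisons each p was 0.635.

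**Figure D3:**
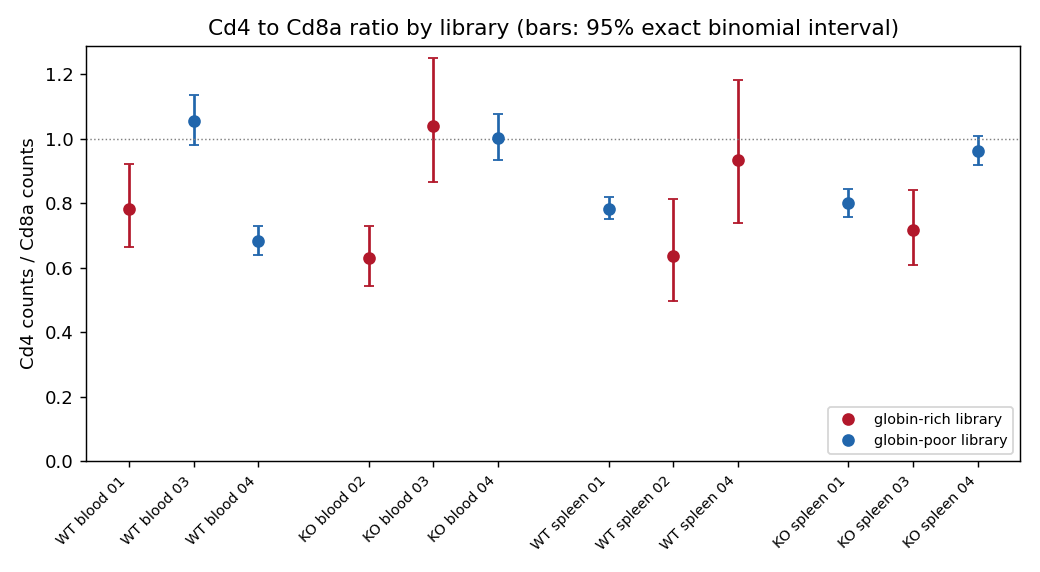
Ratio of Cd4 to Cd8a counts (y axis, linear, from 0) in each library with its 95% exact binomial interval, globin-rich in red and globin-poor in blue. KO blood 03 and 04 and WT blood 03 sit at 1.00 to 1.05, and each group of 3 holds a spread as wide as the differences between groups.

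The choice of CD8 gene mattered between the kinds. The ratio of Cd4 to Cd8b1 was 0.683 to 1.13 in globin-rich and 1.13 to 1.48 in globin-poor libraries, a log2 difference of -0.53 (exact permutation p = 0.0043), and that of Cd4 to both CD8 genes summed differed by -0.33 (exact p = 0.026). Both p-values are of alternatives to the comparison above and were not adjusted. The ranges touched at 1.13, where KO blood 03 (globin-rich) and KO spleen 01 (globin-poor) met. The ratio of Cd8a to Cd8b1 was 0.956 to 1.50 in globin-rich and 1.14 to 1.83 in globin-poor libraries. Beside it, the 13 dendritic cell genes took 130 to 315 CPM together in globin-rich libraries against 503 to 1051 CPM in the others. Under TMM scaling, explained below, 9 of the 13 were called lower and 1 higher, against 26.8% and 29.1% of 17555 genes. Xcr1, which marks the CD8 alpha dendritic cells, measured 0.376 to 6.22 and 6.47 to 14.2 CPM. By edgeR it was not called (log2 fold change -0.91, adjusted p = 0.0682), and the 1 gene called higher was Itgae (1.31). In CPM without overlap, 49.8% of 14538 genes were lower in globin-rich libraries. The part of dendritic cells in these ratios was not tested.

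Between the kinds, levels depended on the scaling. Under TMM scaling (trimmed mean of M-values, which balances the bulk of genes between libraries), 4 of the 10 genes were higher in globin-rich libraries, against 29.1% of 17555 genes called higher and 26.8% called lower, or 55.9% either way. Tcf7 was higher by 1.27 ± 0.19 on the log2 scale (adjusted p = 6.31e-05, edgeR), Cd28 by 0.81 ± 0.26 (0.0148), Cd3e by 0.53 ± 0.18 (0.0183) and Cd8b1 by 0.48 ± 0.15 (0.014). The other 6 were not called, among them Cd247 at 0.44 ± 0.22 (0.0918), Cd8a at 0.12, Lck at 0.03 and Cd4 at -0.05. Scaled by library size alone, which moved the median of all genes from 0.02 to -1.05, 8 of the 10 were called lower (57.3% of all genes lower, 12.7% higher), and Cd28 (-0.28) and Tcf7 (0.17) were not called. Cd3e and Cd8b1 thus changed from called higher to called lower, Cd28 lost its call and changed sign, and Tcf7 alone of the 10 was above 0 under both scalings. In CPM without overlap, Cd4 and Lck were lower in globin-rich libraries, 2 of 10 against 49.8% of 14538 genes, and none was higher, against 3.49%. Whether fewer T cells or less of each RNA per T cell underlies a lower level cannot be told apart in bulk RNA.

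The 4 calls under TMM also rested unequally on single libraries. Tcf7 was called in 12 of 12 fits that left out 1 library, with log2 values of 1.01 to 1.40. Cd28 was called in 9, and lost its call without KO blood 02, KO blood 03 or WT spleen 04. Cd3e and Cd8b1 were called in 7 each, and lost their call without those 3 libraries and without WT spleen 02 or KO spleen 03. Without WT spleen 01, Cd247 was called as well.

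**Figure D4:**
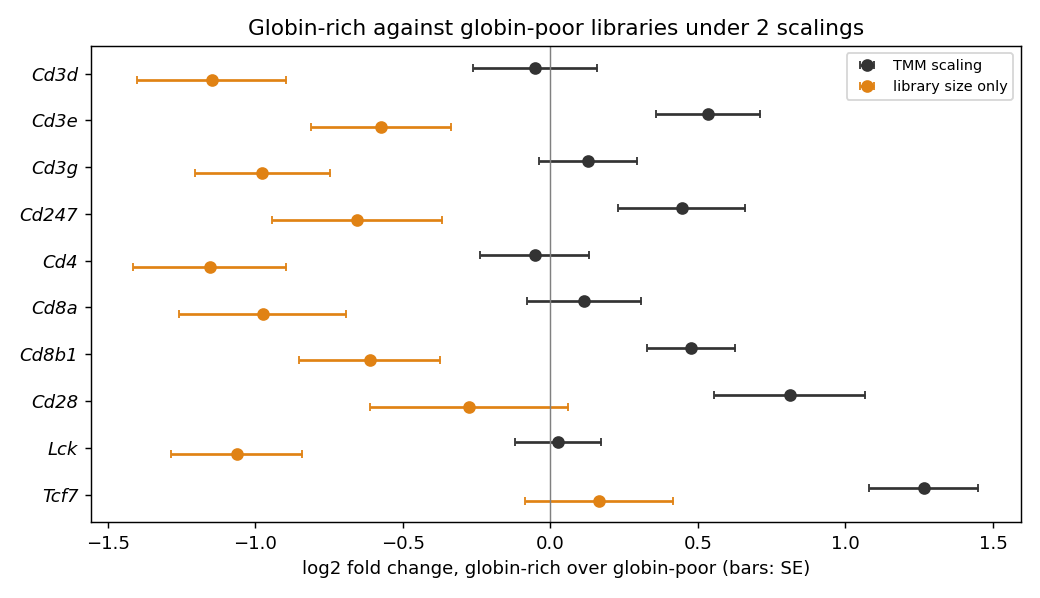
Log2 fold change of globin-rich over globin-poor libraries (x axis) with its SE for each gene, under TMM scaling (dark) and library size alone (orange). The 2 scalings sit about 1 log2 unit apart for every gene, and Tcf7 lies right of 0 under both, at 1.27 and 0.17.

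Ratios within libraries do not depend on the scaling. Relative to Cd3d, Cd3e and Cd3g summed, Tcf7 was 1.10 to 1.84 in globin-rich and 0.493 to 0.850 in globin-poor libraries, a 2.05-fold difference of geometric means with no overlap. Its lowest globin-rich value was in KO spleen 03 and its highest globin-poor value in KO spleen 04. Among 14538 genes, 5.54% had a ratio to summed CD3 that was higher without overlap in globin-rich libraries and 14.4% one that was lower, and the median fold over the 12270 genes above 0 in every library was 0.816. Of the 7 genes compared in this way Tcf7 was the only one without overlap. The fold was 1.49 for Cd28, 1.19 for Cd8b1, 1.16 for Cd247, 0.927 for Cd8a, 0.873 for Lck and 0.826 for Cd4. Against Cd3e alone, Tcf7 was 2.89 to 4.58 in globin-rich and 1.68 to 2.90 in globin-poor libraries, ranges that just overlap.

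Ratios among the CD3 genes also varied. Cd3d to Cd3g was 0.651 to 1.33 over the 12 libraries, and the kinds overlapped. Cd3e to Cd3g was 0.920 to 1.48 in globin-rich and 0.783 to 1.02 in globin-poor libraries. NK cell genes moved in the same direction as Tcf7 under TMM. Of the 15 NK and cytotoxic genes 10 were called higher in globin-rich libraries and none lower, against 29.1% and 26.8% of 17555 genes. Gzmb was at 2.58 and Gzma at 1.91 on the log2 scale. The summed CPM of the 15 overlapped, however, at 227 to 617 against 266 to 527. Under library size alone 3 were called higher and 3 lower, against 12.7% and 57.3% of all genes. Ncr1, which defines NK cells, measured 8.70 to 15.9 CPM where globin was rich and 0.964 to 5.20 CPM where it was poor. The part of NK cells in the Tcf7 and Cd247 values was not tested.

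**Figure D5:**
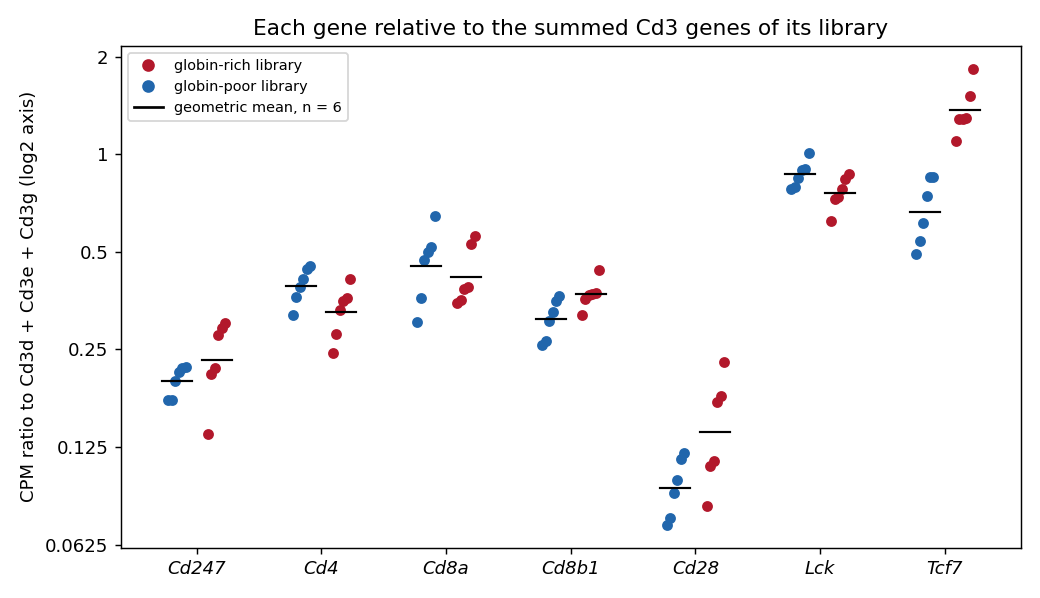
CPM of each gene divided by the summed CPM of Cd3d, Cd3e and Cd3g in its library (y axis, log2 scale), with globin-rich libraries in red, globin-poor ones in blue and lines at the geometric means of 6 libraries. Tcf7 is the gene whose kinds do not overlap, at 1.10 to 1.84 against 0.493 to 0.850.

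By tissue label, levels in CPM were read within each kind. Among globin-poor libraries, 9 of the 10 genes, all but Cd3d, were higher in the 3 spleen labels than in the 3 blood labels without overlap, against 26.3% of 14538 genes, and none was lower, against 9.44%. Lck was 196 to 315 CPM in spleen and 142 to 168 CPM in blood, and Tcf7 184 to 272 against 99.1 to 104 CPM. In these globin-poor libraries globin took 0.846 to 2.95% of counts under the spleen label and 4.90 to 5.90% under the blood label. Within each kind, genotypes were also split unevenly between the labels. The part of globin share and genotype in these values was not tested. Among globin-rich libraries none of the 10 was higher without overlap (3.50% of genes were), and Cd28 was lower, at 8.05 to 19.6 against 21.6 to 27.5 CPM (7.22% of genes were lower). Tested over all 12 libraries with kind as a term, all 10 log2 fold changes of spleen over blood label were above 0, with a median of 0.34 against 0.02 over all genes. Cd3g had 0.51 ± 0.17 (unadjusted p = 0.00732), and the smallest adjusted p of the 10 was 0.28 by edgeR. None of the 10 was called, nor by DESeq2 (smallest adjusted p 0.065) or limma-voom (0.076), against 0.0342% of genes called by edgeR, 0.0228% higher and 0.0114% lower. DESeq2 called 403 and limma-voom 711 of 17555 genes.

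Other genes of the receptor and its pathway were read from fixed lists. Between the kinds, 29.1% of all 17555 genes were called higher and 26.8% lower under TMM. Under library size alone these shares were 12.7% and 57.3%. None of the 7 constant-region genes of the receptor chains was called between the kinds under TMM. Trac, for the alpha chain, was at -0.16, Trbc1 and Trbc2, for the beta chain, at -0.10 and -0.17, Trdc at 0.54 (adjusted p = 0.0812, edgeR) and Tcrg-C1 at -1.16 (0.11). Under library size alone 6 of the 7 were called lower. Of 21 genes that act next to the receptor, 15 were called higher and none lower under TMM (median 0.70), while library size gave 2 higher and 5 lower (median -0.39). Grap2, an adaptor also used by platelets, was at 2.21 and Prkcq, protein kinase C theta, at 1.66, whereas Zap70 (0.14) and Lat (0.26) were not called.

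Among 13 costimulatory and checkpoint genes, 3 were called higher and 5 lower under TMM, where 29.1% of all genes were called higher and 26.8% lower. Cd226, an adhesion receptor also found on platelets, was at 4.73 and Lag3, an inhibitory receptor that binds MHC class II, at -1.85. All 8 platelet genes were called higher under both scalings (median 5.19 under TMM, with Tubb1 at 7.01 and Itga2b at 5.25), and together took 2379 to 7467 CPM where globin was rich and 197 to 345 CPM where it was poor. The part of platelet RNA in Grap2, Prkcq and Cd226 was not tested. Of 16 T cell transcription factors, 8 were called higher and 1 lower (median 0.70), with Klf2 at 1.34, Bcl6 at 1.39 and Lef1, a partner of Tcf7 in naive T cells, at 0.70. Of 10 genes of naive cells and homing, 6 were called higher and 1 lower (median 0.96), with Ccr7, for the lymph node homing receptor, at 1.30. Under library size alone these 2 lists gave 0 and 1 higher and 3 and 4 lower, against 12.7% of all genes higher and 57.3% lower. Of 8 regulatory T cell genes, 1 was called higher and 2 lower, Nrp1 at -1.28 and Izumo1r at -1.09, and Nrp1 is also an endothelial gene.

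Lists of other cell types were read in the same comparison. Of all 17555 genes, 29.1% were called higher and 26.8% lower under TMM, and 12.7% and 57.3% under library size alone. Stroma and endothelium had 10 of 11 genes called lower and 1 higher in globin-rich libraries, with Col1a1 at -6.96 and Col1a2 at -6.24. Dendritic cell genes included Dnase1l3 at -4.83 and Batf3 at -3.16. Among 12 B cell genes 6 were called higher and 1 lower under TMM, with Fcer2a at 1.40 and Cr2 at -1.06, while library size gave 0 higher and 7 lower. Cd79a, part of the B cell receptor, measured 290 to 789 CPM in globin-rich libraries and 786 to 1542 CPM in the others. Among 12 monocyte and macrophage genes 5 were called higher and 4 lower, with Vcam1 at -7.54 and Spic at -4.67. Csf1r, the receptor that defines this lineage, measured 83.3 to 208 CPM in globin-rich libraries and 147 to 301 CPM in the others.

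By genotype with kind as a term, no gene of any of these lists was called by edgeR, and the smallest adjusted p was 0.899. The constant-region genes had a median of 0.16, the genes next to the receptor 0.06 and the costimulatory list -0.03. Trbc1 was at 0.31 ± 0.18, Tcrg-C1 at 0.61 ± 0.59, Cd96 at 0.41, Trat1 at 0.69, Slamf6 at 0.32 and Bcl11b at 0.23. Lag3 was at -0.92 ± 0.31 (unadjusted p = 0.0098, edgeR) and Ccr4 at -0.91 ± 0.52. In globin-rich libraries Lag3 measured only 0.939 to 5.15 CPM, Ccr4 0.548 to 3.77 CPM and Tcrg-C1 0.188 to 2.06 CPM. Within globin-poor libraries the lowest value of the costimulatory list was -0.30, and that of the naive and homing list -0.25. Over all libraries with kind as a term, Dapl1 was at -0.25, and the regulatory T cell genes Ikzf4 and Nrp1 at -0.52 and -0.33. Nkg7 and Klrk1, of NK and cytotoxic cells, were at 0.21 and 0.19, the B cell genes Cd22 and Fcer2a at 0.18 and 0.14, and the dendritic cell genes Dnase1l3 and Bst2 at -0.36 and -0.24. The macrophage genes Cd5l and Vcam1 were at -0.69 and -0.65. Platelet genes were below 0 in 8 of 8 cases (median -0.52, Treml1 and Itga2b at -0.55 and -0.56), as were stroma and endothelium genes in 11 of 11 (median -0.52, Cxcl13 at -0.83 and Pdgfrb at -0.94). Of all 17555 genes, 7618 were above 0. The platelet result was not shared by the kinds or labels. Within globin-rich libraries 8 of 8 platelet genes were below 0 (median -0.98), and within globin-poor ones 4 were (median 0.001). Without kind as a term, 8 of 8 were above 0 in blood (median 0.77) and 8 of 8 below 0 in spleen (median -1.72). The part of platelet, stroma and endothelium genes in the T cell gene values was not tested.

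Of 9875 protein-coding genes that averaged 5 CPM or more and had a count in every library, those that kept the steadiest ratio to summed CD3 were Cd27, with an SD of the log2 ratio of 0.14 over the 12 libraries, Limd2 (0.18), Sema4f (0.18), Thy1 (0.19) and Twf2 (0.19). The median SD was 0.63. Cd27 encodes a costimulatory receptor of T cells and Thy1 a surface protein of mouse T cells. Among the 10 genes Lck ranked 3 (0.18), Cd8b1 18, Cd4 89, Cd247 395 and Cd8a 464, while Cd28 ranked 3314 and Tcf7 4683 (0.61). All points share library depth and composition, and the ratio is a description.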

How the data were processed

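The authors deposited unnormalized counts for 46603 Ensembl identifiers in each of 12 tables. Per the submitters' processing notes, the tools were HTSeq, HISAT2 2.0.4, SAMtools 0.1.19, Trimmomatic 0.36 and FastQC, and the builds mm10 and GRCm38. The strand setting and the annotation release are not given in the sources used here. Symbols for 46005 identifiers came from GENCODE vM21 (GRCm38), and promoters from RefSeq (GRCm38.p6). Hbb-b1 and Hbb-b2 had no identifier.

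Globin genes were left out, genes were kept with filterByExpr, scaled by TMM and tested with edgeR 4.0.16's robust quasi-likelihood F test in R 4.3.3, and called at a Benjamini-Hochberg adjusted p under 0.05. Fits over all 12 libraries had terms for tissue label, kind and genotype (tissue label and genotype for the tissue interaction), and others genotype only. The code was tested on simulated data. DESeq2 1.42.0, limma-voom (limma 3.58.1), other scalings and filters, and single libraries left out were alternatives. Ratios used exact permutation tests. Over all 12 libraries, genotype and tissue label were permuted within kind, and kind was permuted without strata. Binomial intervals were computed with scipy 1.17.1. Depth limits precision most in the 6 globin-rich libraries. No library was a duplicate of another (smallest chi-square per degree of freedom 8.09).

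All 10 genes were named. From each other list, up to 2 genes with the smallest p in the comparison of kinds and in the genotype comparison with kind were named, with the 5 genes steadiest against summed CD3 and 6 defining markers. Other genes with values (Trac, Trbc2, Zap70, Lat, Lef1, Itgae) were named after their values were seen. Some genes that this rule names are not reported here. Txk and Eomes stand in 2 lists each. The genes and lists were chosen with earlier results of these data known.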

Additional observations from a re-analysis of the deposited data

How the results depend on the processing

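None of the 10 genes was called in any genotype comparison, within-kind comparison, interaction or comparison of tissue labels under any alternative run. The median of the 10 ranged from -0.06 to 0.56 in blood, from -0.21 to 0.39 in spleen and from 0.02 to 0.29 with kind as a term. The number called between the kinds moved from 4 to 8, all lower, with library size alone, and to 1 with no filter on low counts. Of all genes, 10067 of 17555 were called lower with library size alone, and 14059 of 35640 were called with no filter. Leaving out 1 library gave 1 to 5 called, where 7568 of 14437 (without KO blood 04) to 10919 of 20461 genes (without KO blood 03) were called. Library size alone reversed Cd3e (-0.57), Cd3g (-0.98), Cd247 (-0.65), Cd8a (-0.97), Cd8b1 (-0.61), Cd28 (-0.28) and Lck (-1.06). The log2 difference of the Cd4 to Cd8a ratio between the kinds became -0.53 with Cd8b1 in place of Cd8a and -0.33 with both CD8 genes. Leaving out 1 library gave -0.028 to 0.16 for genotype, -0.25 to -0.11 for kind and -0.19 to 0.0069 for tissue label. Except for the scaling, the cause of these shifts was not tested.

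With the replicate number as a block, 2 genes were called between the kinds (Cd28 and Tcf7), and medians were 0.32 for genotype in blood, -0.11 in spleen and 0.17 with kind. No label ties a replicate number to a mouse. Residuals of same-numbered libraries correlated at 0.46 to 0.67 in 4 pairs of 1 kind and at -0.77 to -0.24 in 4 pairs of different kinds. The sign followed the kind in all 8 pairs, so this check cannot tell whether the numbers pair the libraries, and the fit without the block is the one described.

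The smallest count behind a value was 37 (Cd28 in WT spleen 02), and depth limits the globin-rich libraries most.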
